A study of Homo sapiens with 6 samples.

Results

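The 10 genes described here are the 5 subunits of the transcription factor NF-kB (NFKB1, NFKB2, RELA, RELB and REL), its feedback inhibitors NFKBIA and TNFAIP3, the ubiquitin ligases BIRC2 and BIRC3, and the adhesion receptor gene ICAM1. They were taken by symbol from the 58735 genes of a deposited count table, and all 10 were found and passed the filter on low counts, which kept 16577 genes. RNA was sequenced from Huh7, an established human hepatocellular carcinoma line. The 3 libraries labelled shcontrol carried a control short hairpin RNA and 3 labelled shITGB5 carried a hairpin against ITGB5, the integrin beta 5 subunit. No drug, dose or time is named in the labels, and both groups were grown in the same serum-containing medium. Neither the hairpin sequences nor whether the cells were pools or single clones is known from the labels. Nothing says that a group's 3 libraries are from different cultures, and the p-values therefore reflect only library-to-library spread, which could be technical. The question put to these genes was whether lowering ITGB5 mRNA went with a change in the transcripts of the NF-kB system.

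NF-kB is a family of dimers that wait in the cytoplasm, bound by inhibitor proteins such as IkB alpha, the product of NFKBIA. Receptors for inflammatory cytokines recruit ubiquitin ligases, among them the BIRC2 and BIRC3 products cIAP1 and cIAP2, and activate a kinase that marks the inhibitor for destruction. Freed dimers enter the nucleus and switch on genes that include NFKBIA, TNFAIP3, BIRC3 and ICAM1, so that several of these transcripts serve both as parts of the pathway and as readouts of it. In hepatocytes and hepatoma cells the pathway is known for its role in inflammation and in survival after exposure to tumour necrosis factor.

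Sequence upstream of the start site is shown for 4 genes: BIRC3 and ICAM1, which passed the test below in opposite directions, BIRC2, the neighbour and closest relative of BIRC3, and NFKBIA, the classical feedback gene. Each line gives the 250 bases before a RefSeq start site (GRCh38.p14), 5′ to 3′ on the gene's strand, and capitals mark every match to the 9-letter motif GGNNTTTCC or its reverse complement GGAAANNCC, a core shared by many NF-kB sites.
BIRC3, chr11:102317234-102317483, plus strand: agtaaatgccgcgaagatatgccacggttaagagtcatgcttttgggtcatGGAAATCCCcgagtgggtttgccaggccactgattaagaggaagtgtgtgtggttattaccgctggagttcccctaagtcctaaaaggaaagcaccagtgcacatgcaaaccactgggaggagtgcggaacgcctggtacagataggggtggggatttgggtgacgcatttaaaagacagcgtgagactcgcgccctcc
ICAM1, chr19:10270870-10271119, plus strand: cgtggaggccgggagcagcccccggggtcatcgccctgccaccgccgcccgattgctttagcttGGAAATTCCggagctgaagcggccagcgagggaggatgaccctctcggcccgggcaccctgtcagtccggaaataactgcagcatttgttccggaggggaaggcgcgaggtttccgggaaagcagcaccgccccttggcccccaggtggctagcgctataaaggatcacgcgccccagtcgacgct
BIRC2, chr11:102346964-102347213, plus strand: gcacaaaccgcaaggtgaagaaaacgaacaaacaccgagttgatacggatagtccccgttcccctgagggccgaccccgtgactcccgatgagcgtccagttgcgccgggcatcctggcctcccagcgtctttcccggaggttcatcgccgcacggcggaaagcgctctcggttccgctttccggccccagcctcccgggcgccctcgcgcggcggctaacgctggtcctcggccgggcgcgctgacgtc
NFKBIA, chr14:35404750-35404999, minus strand: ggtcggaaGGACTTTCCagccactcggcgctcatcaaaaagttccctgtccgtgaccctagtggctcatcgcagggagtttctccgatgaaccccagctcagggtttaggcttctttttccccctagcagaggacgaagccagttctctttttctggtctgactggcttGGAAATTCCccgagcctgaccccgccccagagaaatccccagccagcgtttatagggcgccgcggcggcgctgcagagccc
The motif was settled on after the sequences had been seen. BIRC3 has a match on the minus strand that begins at -199 relative to the start site, ICAM1 has 1 at -186, and NFKBIA has 2, at -242 and -81. The ICAM1 stretch lies inside the gene as GENCODE bounds it, whose first base is 10270835, upstream of this RefSeq start. The BIRC2 windows hold no match, which says only that these letters are absent there.

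Windows of 300 bases (250 before and 50 after a start site) were searched on both strands for all genes of the RefSeq table. Of 35116 windows, 6.26% held the short motif and 11.3% held the longer degenerate NF-kB consensus, which overlaps the short motif in most of its matches among these genes. Of the 9 members with a window (RELB had no entry), 7 held the short motif in at least 1 window and 6 held the consensus, against 7.61% and 13.3% of all 27305 genes with a window. Because the short motif was settled on after sequences had been seen, its gap from all genes is no test of the members. The members were chosen as NF-kB pathway and target genes, and some have several windows. The gap for the consensus is therefore no test either. Of the members' 14 windows, 8 held the short motif and 7 the consensus. ICAM1 held the short motif without the consensus. NFKB1 (-48), REL (-46), TNFAIP3 (-67 and -55) and NFKB2 (-77 in 1 window and -20 in another) carried short-motif matches close to the start, whereas the windows of RELA and BIRC2 had neither. The motif was therefore present in the gene that fell, in the gene that rose and in 5 genes that did not pass. A match is a description of the letters and not a measured binding site.

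The other members lie apart from one another in GRCh38: NFKB1 at chromosome 4, 102501329 to 102617302, NFKB2 at chromosome 10, 102394110 to 102402529, RELA at chromosome 11, 65653596 to 65663094, RELB at chromosome 19, 45001430 to 45038198, REL at chromosome 2, 60881521 to 60931610, NFKBIA at chromosome 14, 35401511 to 35404749, and TNFAIP3 at chromosome 6, 137867188 to 137883312. RELA and NFKBIA are on the minus strand and the rest on the plus strand.

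The libraries were alike in depth, and the targeted transcript was only modestly lower. Totals ran from 15777922 to 18011313 counts. Columns of the table carry codes (NC and S) that were taken for the control and the ITGB5 hairpin. ITGB5 lay at 205, 214 and 217 CPM (counts scaled to library size by the TMM method) in the controls and at 173, 181 and 174 CPM with the hairpin, a change of -16.8% (95% interval -20.4% to -13.1%, edgeR, Benjamini-Hochberg adjusted p = 2.85e-11). Across all genes, 15.5% of those tested passed an adjusted p of 0.05, with 8.54% rising and 6.96% falling. Hepatocyte and hepatoma markers (ALB, AFP, APOA1, APOB, TF, SERPINA1, TTR and FGB) summed to between 6592 and 6755 CPM in controls and between 7504 and 7675 CPM with the hairpin, with 7 of the 8 rising. Among blood and immune markers, CD14 ran from 30.1 to 31.5 CPM in controls and from 33.8 to 35.9 CPM with the hairpin, and LYZ from 6.19 to 7.40 CPM against 6.07 to 6.48 CPM, and neither passed. With PTPRC, CD3E and CD68, each at a mean under 1 CPM, these 5 summed to 37.4 to 37.8 CPM against 40.4 to 42.8 CPM, without overlap. Endothelial markers summed to 3.56 to 5.64 CPM against 4.12 to 5.45 CPM, with KDR at 0 in all libraries, and fibroblast and stellate markers to 287 to 300.5 CPM against 321 to 330.2 CPM, mostly LUM and COL1A2. LUM rose (log2 change 0.22, edgeR adjusted p = 9.70e-08), and COL1A2 (adjusted p = 0.16), COL1A1 and PDGFRB did not pass. The part of these shifts in the results below was not tested. Fewer cells of a type and less RNA per cell cannot be told apart in bulk RNA.

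Most of the NF-kB core did not pass the test, and the exceptions were BIRC3, which fell, and ICAM1, which rose. That is 2 of 10 members past the threshold, against 15.5% of all genes tested, a share close enough to the background that the count alone says nothing particular about these genes. The median log2 change over the 10 members was -0.04, against 0.00 over all genes tested. Groups did not overlap for 3 of the 10 (BIRC3, ICAM1 and NFKB2), against 28.5% of all genes tested.

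**Figure D1:**
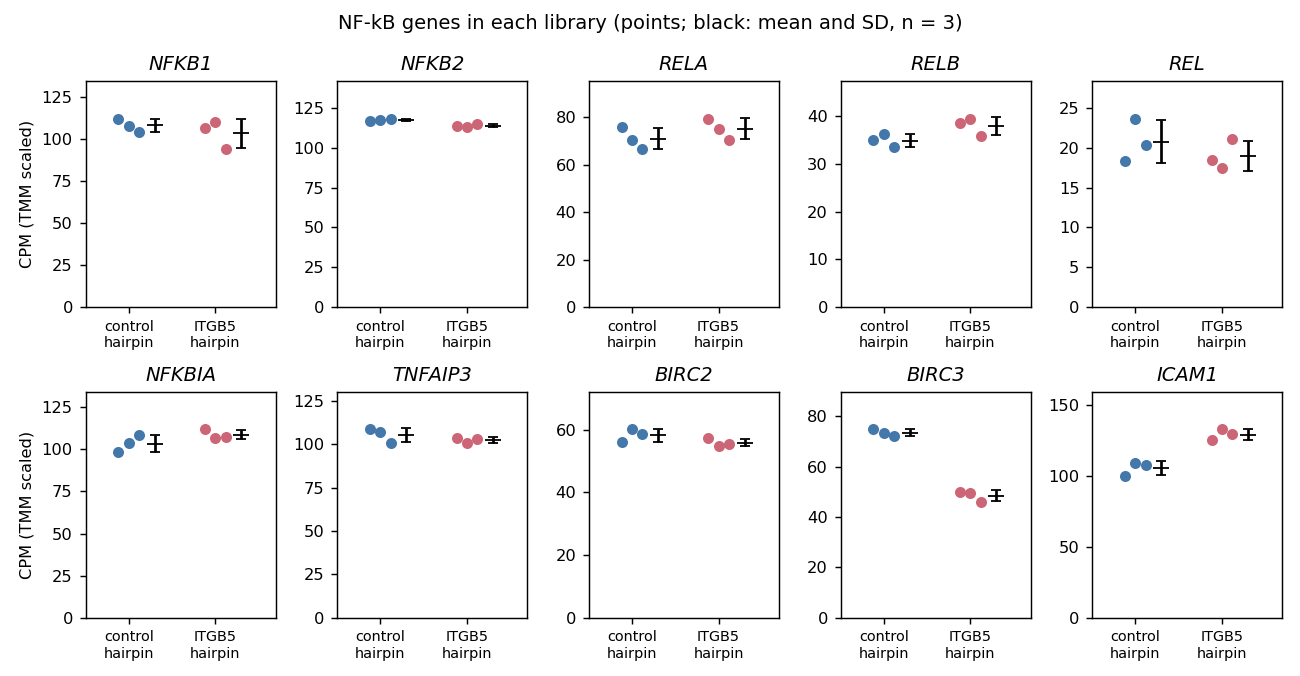
Each panel shows 1 gene, with CPM on a linear axis from 0 for the 3 control hairpin libraries (blue) and the 3 ITGB5 hairpin libraries (red); black marks give the mean and SD. BIRC3 is lower in all 3 hairpin libraries and ICAM1 higher in all 3, while NFKB2 is separated by a few CPM and the other 7 genes overlap.

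BIRC3 encodes cIAP2, a ubiquitin ligase of the inhibitor of apoptosis family that acts at tumour necrosis factor receptor complexes. Its level was 74.8, 73.5 and 72.2 CPM in the 3 control libraries and 50.1, 49.4 and 45.9 CPM in the 3 hairpin libraries. The groups stayed far apart: the highest hairpin library was well below the lowest control. The fall took the mean from 73.5 CPM ± 1.29 to 48.4 CPM ± 2.23 (SD, n = 3 each), a change of -34.1% (95% interval -38.6% to -29.3%). On the log2 scale this was -0.60 ± 0.051 (SE), with an edgeR adjusted p of 7.07e-19. Between 808 and 1305 counts per library stood behind these values. By size of change BIRC3 ranked 49 among the 1082 protein-coding genes that fell.

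ICAM1 encodes an adhesion receptor that binds leukocyte integrins and is a standard readout of NF-kB in epithelial and endothelial cells. It was measured at 99.7, 109 and 107 CPM in controls and at 125, 133 and 129 CPM with the hairpin. Every hairpin library was above every control. The rise was 22.4% (95% interval 15.98% to 29.1%), from a mean of 105 CPM ± 5.05 to 129 CPM ± 3.68 (SD, n = 3 each), or 0.29 ± 0.039 (SE) on the log2 scale (edgeR adjusted p = 1.29e-09). ICAM1 ranked 406 by size among the 1375 protein-coding genes that rose, so its rise was of a more usual size than the fall of BIRC3. Antisense genes overlap ICAM1 exons at 2 places, and their counts equalled 0.025% and 0.109% of those of ICAM1.

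BIRC2, whose product cIAP1 is the close relative of cIAP2, did not pass. Control libraries held 55.96, 60.1 and 58.6 CPM and the 3 hairpin libraries 57.3, 54.9 and 55.6 CPM, which overlap. The fitted change was -3.90% (95% interval -10.5% to 3.24%, edgeR adjusted p = 0.553). That interval ends well short of the fall of BIRC3.

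The neighbouring pair was also compared within each library, where library scaling plays no part. Per base of gene length as the table gives it, the ratio of BIRC3 to BIRC2 was 0.762 ± 0.038 in the controls (range 0.737 to 0.806) and 0.522 ± 0.023 with the hairpin (range 0.498 to 0.542; SD, n = 3 each). The ranges did not overlap, and the difference was -0.54 on the log2 scale. An exact two-sided permutation test gave p = 0.1, the smallest that 3 libraries against 3 allow, and 0.4 after adjustment over the 4 ratios computed. The 2 genes lie head to tail on chromosome 11 (BIRC3 at 102317450 to 102339403, BIRC2 at 102347211 to 102378670, GRCh38, both on the plus strand), with 7807 bases between them. On the other side the nearest tested protein-coding gene, YAP1, a transcriptional coactivator of the Hippo pathway that is 84026 bases away, rose from 71.6 to 80.9 CPM (log2 change 0.18, edgeR adjusted p = 0.00337). The 3 neighbours thus gave a rise, a fall and a change that did not pass. ICAM1 (chromosome 19, 10270835 to 10286615, plus strand) lies between MRPL4 (log2 change 0.12, edgeR adjusted p = 0.173) and ICAM5 (-0.25, 0.324), neither of which passed.

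**Figure D2:**
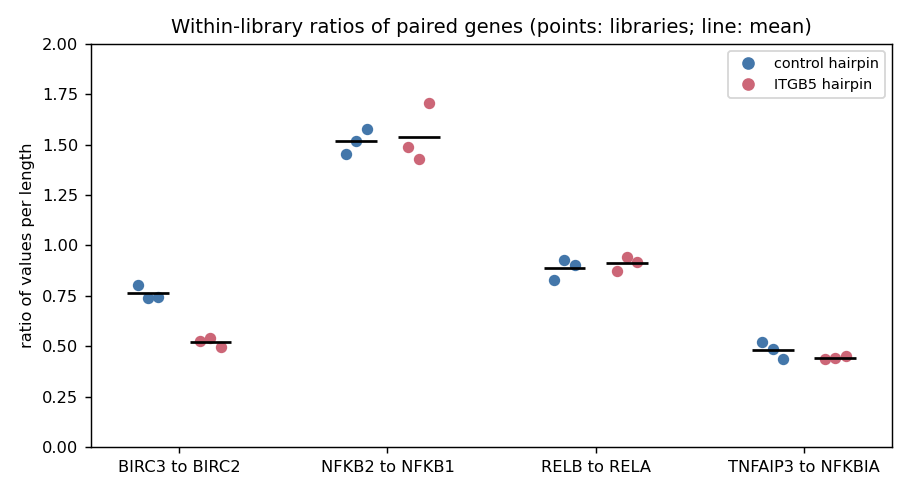
The ratio of the length-scaled values of 2 genes (vertical axis, linear from 0) is shown for each control hairpin library (blue) and ITGB5 hairpin library (red), with lines at the means. Only the ratio of BIRC3 to BIRC2 separates the groups, at 0.737 to 0.806 against 0.498 to 0.542; the other 3 ratios overlap.

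Among the subunits, none passed. NFKB1 and NFKB2 encode the precursors p105 and p100, which are cut to the DNA-binding subunits p50 and p52 and which, uncut, also retain NF-kB in the cytoplasm. NFKB1 lay at 112, 108 and 105 CPM in controls and at 107, 110.2 and 93.96 CPM with the hairpin. The third hairpin library was the lowest of the 6 and the others overlapped. Its fitted change was -4.48% (95% interval -9.91% to 1.27%, edgeR adjusted p = 0.345). NFKB2 was very even within each group, at 117, 118 and 118 CPM in control libraries and 114, 113 and 115 CPM with the hairpin. All 3 hairpin libraries were thus below all 3 controls, by little: the change was -3.27% (95% interval -8.21% to 1.93%, edgeR adjusted p = 0.478).

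RELA, RELB and REL encode the subunits that carry a transactivation domain. RELA, the p65 subunit of the canonical dimer, lay at 75.8, 70.4 and 66.6 CPM in controls and 79.3, 75.2 and 70.5 CPM with the hairpin, which overlap (change 5.59%, 95% interval -1.21% to 12.9%, edgeR adjusted p = 0.319). RELB, the partner of p52 in the noncanonical pathway, had the largest fitted rise of the 5, from 34.9, 36.2 and 33.4 CPM to 38.5, 39.5 and 35.8 CPM. The lowest hairpin library lay just under the highest control, and the change of 8.79% did not pass (95% interval -0.476% to 18.9%, edgeR adjusted p = 0.229). REL, the c-Rel subunit best known from lymphocytes, was the scarcest and most scattered, at 18.4, 23.7 and 20.3 CPM against 18.4, 17.4 and 21.1 CPM. Its change was -8.65% with the widest interval of the members (-19.2% to 3.30%, edgeR adjusted p = 0.388), with 288 to 397 counts per library behind it.

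Expressed as shares of the summed length-scaled level of the 5 subunit transcripts, NFKB2 made up 37.7% ± 1.06 in the controls and 36.5% ± 1.53 with the hairpin (SD, n = 3 each). NFKB1 followed with 24.9% ± 0.418 and 23.8% ± 1.23, RELA with 18.6% ± 0.848 and 19.7% ± 0.644, and REL with 2.27% ± 0.294 and 2.08% ± 0.277. These 4 shares overlapped between the groups. The shares depend on the 1 length given for each gene, which for REL is 13170 bases. The share of RELB ran from 16.2% to 17.0% in the controls and from 17.7% to 18.3% with the hairpin, without overlap, although RELB itself did not pass and its share depends on the other 4 transcripts. The ratio of NFKB2 to NFKB1 (1.52 ± 0.063 against 1.54 ± 0.146) and that of RELB to RELA (0.886 ± 0.050 against 0.912 ± 0.035) overlapped between the groups (exact permutation p = 0.9 and 0.6, or 0.9 and 0.8 adjusted over the 4 ratios).

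The feedback inhibitors did not pass either, and their fitted changes were small in both directions. NFKBIA encodes IkB alpha, which captures NF-kB dimers and is resynthesized within a short time of their activation. It lay at 98.2, 104 and 108 CPM in controls and 112, 107 and 107 CPM with the hairpin, so that only the first hairpin library stood above all controls. The change was 5.32% (95% interval -0.370% to 11.3%, edgeR adjusted p = 0.237). TNFAIP3 encodes A20, a ubiquitin-editing enzyme that shuts down receptor complexes. Its values were 109, 107 and 101 CPM against 104, 101 and 103 CPM, a change of -2.75% (95% interval -7.98% to 2.79%, edgeR adjusted p = 0.60). The ratio of TNFAIP3 to NFKBIA was 0.481 ± 0.041 in the controls and 0.444 ± 0.0072 with the hairpin, which overlapped (exact permutation p = 0.3, or 0.6 adjusted over the 4 ratios). For both inhibitors the intervals end far below a change the size of that in BIRC3, so a fall or rise as large as 0.60 on the log2 scale lies outside them.

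**Figure D3:**
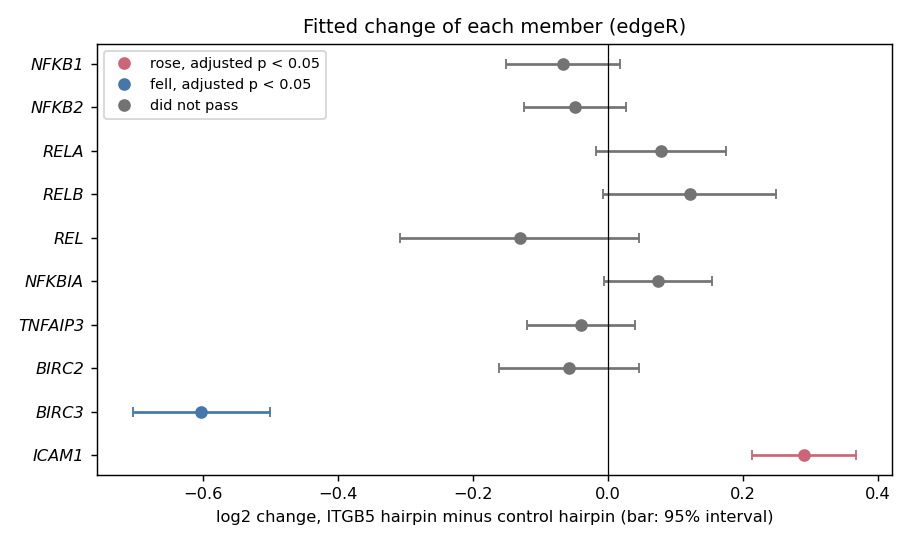
Points give the fitted log2 change of each gene, ITGB5 hairpin minus control hairpin, and bars its 95% interval from edgeR. The intervals of BIRC3 (-0.60) and ICAM1 (0.29) lie clear of 0 on opposite sides, and the intervals of the other 8 genes include 0.

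Compared per length, in FPKM over all 6 libraries, the feedback inhibitor led and c-Rel came last. NFKBIA had a mean of 44.7 FPKM, ahead of ICAM1 (31.6), NFKB2 (25.8), TNFAIP3 (20.6) and NFKB1 (16.9), and no neighbours in that order overlapped in range. RELA (13.4 FPKM), BIRC2 (12.6) and RELB (11.99) came next, and the range of BIRC2 overlapped those of RELA and RELB. BIRC3 stood ninth, at 9.78 FPKM ± 0.172 in the controls and 6.44 FPKM ± 0.296 with the hairpin (SD, n = 3 each). REL was far lower at 1.51 FPKM. Against all 13403 tested protein-coding genes, NFKBIA was at the 92.9th percentile of level, BIRC3 at the 59.8th and REL at the 23.1st. BIRC3 has transcripts with 3′ untranslated regions of 632 to 2301 bases and the table gives 1 length for the gene, so its place in this order depends on that length. For REL the 1 length is 13170 bases, while its transcripts have 3′ untranslated regions of 449 or 9075 bases. Its FPKM and percentile depend on that length. In the controls REL averaged 20.8 CPM against 34.8 CPM for RELB, but 1.58 against 11.5 FPKM.

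Genes whose profile over the 6 libraries was most like that of BIRC3 were sought among 10875 other protein-coding genes with a mean of at least 5 CPM. By the root mean square difference of log2 CPM centred on the control mean, the closest were TSC22D3 (0.047), a glucocorticoid-induced leucine zipper gene, SACM1L (0.047), a phosphoinositide phosphatase gene, and ARL6IP1 (0.054), an endoplasmic reticulum membrane protein gene. Each fell by 0.55 on the log2 scale. TCF19 (0.019), HDAC4 (0.021), a class II histone deacetylase gene, and TMEM192 (0.028) were closest to ICAM1, with log2 changes of 0.31, 0.27 and 0.30. With 2 groups, this likeness mostly measures an equal difference between the groups.

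An earlier look at the same data had found 7-base words in 3′ untranslated regions that were common among genes that fell (AGACCAA and its shifted form GACCAAA) or rose (TCGGAGA and CGGAGAA). With 1 principal transcript per gene, a lower word occurred in 15.8% of 13237 tested genes, in 34.6% of those that fell and in 10.4% of those that rose. A higher word occurred in 3.35% of all, in 8.82% of those that rose and in 2.62% of those that fell. The words were picked from these same data, so these shares are no independent evidence that the words matter. Length of the 3′ untranslated region was not taken into account. BIRC3 held none of the 4 words in the 3′ untranslated region of any of its 3 annotated coding transcripts in the GENCODE basic set, and ICAM1 held none in either of its transcripts. REL was the only member with a word, the overlapping pair AGACCAA and GACCAAA at 1 place in a region of 9075 bases, and it did not pass. Of the 9 other pathway genes that fell, described below, 2 held a lower word, and of the 17 that rose, 2 held a higher word and 1 a lower word.

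Around the members, the wider NF-kB pathway changed in parts and without a common direction. Of 108 other pathway genes in 7 lists, 90 were tested, of which 17 rose, 9 fell and 64 did not pass. That is 26 of 90 past the threshold, beside 15.5% of all genes tested passing in either direction. The same 15.5% is the share to set beside the counts of each list below. The median log2 change of the 90 was 0.01. The lists were written with earlier results of these data known, so they are no independent evidence of a direction or of an excess of calls.

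**Figure D4:**
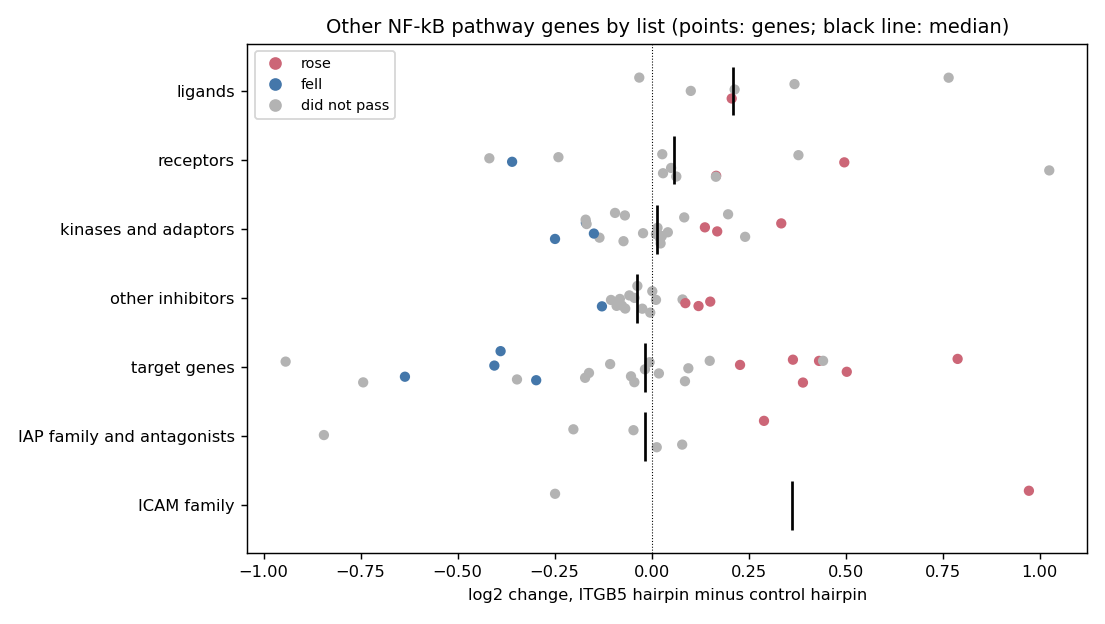
Each point is 1 tested gene of a pathway list, placed by its log2 change (ITGB5 hairpin minus control hairpin); colour shows whether it rose, fell or did not pass, points are spread vertically for legibility, and black lines are list medians. Target genes spread to both sides, from PLAU (-0.64) to CXCL1 (0.79) among those that passed.

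Ligands were mostly scarce. Of 12, 6 were tested and 1 rose: IL18, a cytokine of the interleukin 1 family, went from 125 CPM ± 4.53 to 144 CPM ± 4.77 (log2 change 0.21, edgeR adjusted p = 4.75e-06). TNF itself, chosen after its values were seen along with IL1A and IL1B, averaged 0.678 CPM in controls and 0.792 CPM with the hairpin and did not pass (edgeR adjusted p = 0.829). IL1A and IL1B were too low to test. The list's median log2 change was 0.21 over the 6 tested genes.

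Receptors changed in both directions. Of 12 tested of 14, 2 rose, 1 fell and 9 did not pass, with a median log2 change of 0.06. TNFRSF12A, the receptor for the cytokine TWEAK, which signals through cIAP proteins to noncanonical NF-kB, rose from 99.5, 98.1 and 101 CPM to 132, 145 and 144 CPM (log2 change 0.50, edgeR adjusted p = 3.53e-21). The gene shares 40 exonic bases with CLDN6, an opposite-strand gene with 82.6% as many counts, and whether counting used strand is unknown. LTBR, the lymphotoxin beta receptor, also rose (0.17, edgeR adjusted p = 0.000325). TNFRSF10B, a receptor for the death ligand TRAIL, fell from 186, 187 and 174 CPM to 139.7, 147 and 139.98 CPM (-0.36, edgeR adjusted p = 5.62e-16) and holds 2 copies of GACCAAA. TNFRSF10B shares 67 exonic bases with the opposite-strand gene RHOBTB2, which had 13.7% as many counts. LTBR shares 422 with the opposite-strand gene SCNN1A, which had 3.76% as many. The main tumour necrosis factor receptor TNFRSF1A lay at 107 and 109 CPM and did not pass (0.03, edgeR adjusted p = 0.726, chosen after its values were seen).

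Kinases and adaptors, which link receptors to inhibitor destruction, were split evenly. All 22 were tested, of which 3 rose, 3 fell and 16 did not pass (median log2 change 0.01). TRAF3, an adaptor that restrains the noncanonical pathway together with the cIAP proteins, rose from 30.98 CPM ± 1.75 to 39.0 CPM ± 1.46 (0.33, edgeR adjusted p = 4.37e-05). IKBKE, an IKK-related kinase, fell from 34.9 CPM ± 1.55 to 29.4 CPM ± 1.38 (-0.25, 0.0050) and holds AGACCAA. MAP3K7, the kinase TAK1, fell from 111 CPM ± 3.59 to 99.1 CPM ± 1.33 (-0.17, 0.000755), while its partner TAB1 rose (0.17, 0.0195). TAB1 missed the threshold without shcontrol replicate 2 or 3 or shITGB5 replicate 1 or 2 (edgeR adjusted p up to 0.114). TAB1 holds CGGAGAA, and TRAF3 holds words of both kinds. RBCK1 (0.14) rose and MYD88 (-0.15) fell, both named after their values were seen. The catalytic IKK subunits, also chosen after their values were seen, did not pass, with CHUK at -0.13 (edgeR adjusted p = 0.0758) and IKBKB at 0.04 (0.735).

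The other inhibitors moved little. Of 17, all tested, 3 rose, 1 fell and 13 did not pass (median log2 change -0.04). NFKBIZ, a nuclear IkB protein, fell from 277 CPM ± 0.229 to 253 CPM ± 2.80 (-0.13, edgeR adjusted p = 0.000354). It is listed here by family, and whether it inhibits NF-kB in these cells was not tested. NFKBIB, the IkB beta gene, rose from 50.5 CPM ± 1.84 to 56.0 CPM ± 1.14 (0.15, 0.0405), and OTUD7B (0.12, 0.00708) and TAX1BP1 (0.09, 0.0280), which take part in ubiquitin-based shutdown of the pathway, rose slightly. NFKBIB shares 40 exonic bases with the opposite-strand gene SIRT2, which had 76.0% as many counts. NFKBIB missed the threshold with any of 5 libraries left out (edgeR adjusted p up to 0.164 without shcontrol replicate 2), that is without each library except shcontrol replicate 3, and TAX1BP1 without any control library or without shITGB5 replicate 1 (up to 0.237, without the latter).

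Known target genes moved to both sides. Of 25 tested of 32, 6 rose, 4 fell and 15 did not pass, with a median log2 change of -0.02. That is 10 of 25 past the threshold, against 15.5% of all genes tested. Groups did not overlap for 9 that were higher and 7 that were lower with the hairpin, against 28.5% of all genes tested. The list was written with earlier results of these data known, so this excess is no independent evidence. CXCL1, a neutrophil-attracting chemokine, rose most, from 80.1, 79.0 and 80.1 CPM to 143, 126 and 144 CPM (0.79, edgeR adjusted p = 1.58e-32), and the related CXCL8 rose from 97.1 CPM ± 7.93 to 137 CPM ± 4.04 (0.50, 5.75e-19). CXCL3 also rose (0.43, 0.00314). CXCL1, CXCL2 and CXCL3 are closely related genes, and how the counting divided reads between them was not tested. PLAU, the urokinase gene, fell from 36.5 CPM ± 1.92 to 23.5 CPM ± 0.650 (-0.64, 1.38e-12). The remaining 6, named after their values were seen, were CCL20 (0.23), BCL2L1 (0.39) and IER3 (0.36), which rose, and TRAF1 (-0.39), TAP1 (-0.30) and PSMB9 (-0.41), which fell. TRAF1, whose product binds the cIAP proteins, was at 10.6 and 8.07 CPM. It missed the threshold without shcontrol replicate 1 or 2 or shITGB5 replicate 1 or 3 (edgeR adjusted p up to 0.101). PSMB9 shares exonic bases with the opposite-strand gene PSMB8, which had 51.1% as many counts. SOD2 and TNFAIP2, among the more abundant target genes, did not pass (-0.02 and -0.01, edgeR adjusted p = 0.752 and 0.948, chosen after their values were seen).

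Relatives of BIRC3 and ICAM1 gave 2 further calls. In the inhibitor of apoptosis family and its antagonists, 6 of 7 genes were tested and BIRC5, the mitotic protein survivin, rose from 81.3 CPM ± 2.73 to 99.3 CPM ± 3.22 (0.29, edgeR adjusted p = 3.75e-08). XIAP, the caspase inhibitor of the family, lay at 72.8 and 73.5 CPM and did not pass (0.01, 0.907, chosen after its values were seen). Of the 4 other ICAM genes 2 were tested: ICAM2 was scarce but rose from 1.27 CPM ± 0.303 to 2.51 CPM ± 0.155 (0.97, edgeR adjusted p = 0.0103), and ICAM5, named above as the neighbour of ICAM1, did not pass. ICAM2 shares 869 exonic bases with the opposite-strand gene PRR29, which had 27.7% as many counts. Without shcontrol replicate 3, ICAM2 missed the threshold (edgeR adjusted p = 0.0723).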

How the data were processed

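RNA-seq libraries were made from total RNA of Huh7 cells using a directional library kit, per the labels' protocols. The authors deposited 1 table of whole-number counts per gene, although it is named for FPKM: 100% of its values were whole and its totals differed. No aligner, counter or strand setting is named in the labels or the file header. Positions equalled those of GENCODE 29 (GRCh38) for 58724 of 58735 genes. Columns coded NC were taken as controls and those coded S as ITGB5 hairpin libraries, which the labels do not state outright. The gene length in the deposited table gave FPKM values here.

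Counts were tested with edgeR 4.0.16 (R 4.3.3): filterByExpr, TMM scaling (factors 0.998 to 1.00), robust quasi-likelihood fit, both groups, no covariate, two-sided p-values, Benjamini-Hochberg adjusted over 16577 genes, threshold 0.05. Intervals are 95%. Paired ratios used an exact permutation test. At these depths a count of 0 allows up to 0.167 to 0.19 CPM (3 counts, counting error only). The fit was tested on simulated data, with genes of all levels. It recovered 18.8% of 1.1-fold changes, 34% of 1.2-fold, 67.3% of 1.5-fold and 85.1% of 2-fold changes. Of its calls, 5.71% were false. A gene that did not pass may therefore still have changed by a small amount. The simulation changed far fewer genes than passed in the data, and each recovery rate rests on few genes. These rates need not hold for the data.

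The members and gene lists were chosen with earlier results of these data known. Named genes were the members, ITGB5, up to 4 genes per list past the threshold by size of change, or else the 2 most abundant, and the 3 most similar profiles. Position named the neighbours, and others are marked. A blood marker is not reported here, and the blood marker sum leaves it out. Promoters came from RefSeq (GRCh38.p14), 3′ untranslated regions from GENCODE 29. The primary fit had no block. Alternatives were other scalings and filters, DESeq2 1.42.0, limma 3.58.1, the replicate block and leaving out each library.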

Additional observations from a re-analysis of the deposited data

How the results depend on the processing

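BIRC3 and ICAM1 passed, and the other 8 members did not, in each of 14 alternatives: RLE, upper-quartile and total-count scaling, no low-count filter, a mean CPM of at least 1, DESeq2, limma on log2 CPM, the replicate block and leaving out each library. The log2 change ranged from -0.63 to -0.56 for BIRC3 (largest adjusted p = 2.94e-15), from 0.25 to 0.32 for ICAM1 (2.20e-06) and from -0.29 to -0.25 for ITGB5. No member changed direction. The smallest adjusted p of a member that did not pass was 0.0641, for NFKB1. All genes past the threshold numbered 2569, and 2043 to 2238 with 1 library left out, 2154 without the filter and 2197 with DESeq2. The 26 pathway genes became 23 to 27. The replicate block called 2499 genes, 2 members and 26 pathway genes and changed no call of a member. The libraries share only a number: deviations from the group means correlated at 0.0283, 0.000794 and -0.0177 between same-numbered libraries, and not every library correlated best with its own number. Pathway calls lost in some settings were NFKBIB (7 of 14, adjusted p up to 0.164), TRAF1 (5 of 14, up to 0.101), TAB1 (4 of 14, up to 0.114) and TAX1BP1 (4 of 14, up to 0.237), most of them with 1 library left out. ICAM2 was lost without shcontrol replicate 3 and had no DESeq2 adjusted p. Leaving out the first or the second shcontrol library, or the first of shITGB5, 2 of the other inhibitors passed instead of 4. The ratio of BIRC3 to BIRC2 differed by -0.57 to -0.50 on the log2 scale with 1 library left out. Intervals of the members that did not pass reach from -19.2% to 18.9%, which bounds what this depth and number of libraries can show.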
